A study of Mus musculus with 6 samples.

Results

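The integrated stress response and the unfolded protein response were followed through 44 named genes in macrophages sorted from mouse tumours. The genes were taken by symbol from the deposited table of 21878 genes. All 44 had a row, and all 44 passed the filter on low counts that left 12136 genes for testing.

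KO libraries came from Trmt61a f/f LysmCre mice, which carry floxed alleles of Trmt61a and a Cre recombinase expressed from the lysozyme M locus, a gene active in macrophages, monocytes and neutrophils. WT libraries came from Trmt61a f/f mice, which have the same floxed alleles and no Cre. Both groups had received MC38 cells, a mouse colon carcinoma line, and their tumour-associated macrophages were sorted by flow cytometry 14 days later. There were 3 libraries in each group. The sources used here do not give the sex and age of the mice, the sorting gate, or whether a library held 1 mouse or several. P-values therefore reflect how far these libraries vary, and some of that variation may be technical. TRMT61A is the catalytic part of a methyltransferase that places m1A, a methyl mark, on tRNA, and the study asks how its loss affects macrophages in a tumour.

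The integrated stress response starts when kinases sense a shortage of amino acids, haem or folding capacity and phosphorylate the initiation factor eIF2. General translation then falls, while the mRNA of the transcription factor ATF4 is translated better, and ATF4 switches on genes that make, import and save amino acids. The unfolded protein response starts in the endoplasmic reticulum (ER), where the sensors IRE1, PERK and ATF6 detect unfolded proteins and raise chaperones and the machinery that degrades misfolded proteins. PERK is one of the eIF2 kinases and joins both responses. Gene counts see the RNA of these genes. They do not see phosphorylation of eIF2, translation of Atf4, cleavage of ATF6 or splicing of Xbp1.

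Levels are given as CPM, counts scaled to a common library size with TMM factors, and fold changes are KO over WT on a log2 scale. Library totals ran from 18839026 to 20313597 counts. Trmt61a fell to 2.13, 1.73 and 2.46 CPM in KO, against 8.01, 6.95 and 7.38 CPM in WT, and every library followed its label (log2 -1.81, SE 0.197, edgeR adjusted p = 0.0426). That call was lost without KO replicate 1 (adjusted p = 0.111), KO replicate 3 (0.14), WT replicate 1 (0.13), WT replicate 2 (0.0707) or WT replicate 3 (0.314). All 13 macrophage markers looked for were tested, of which 4 had positive fold changes and 2 were lower in KO at an unadjusted p under 0.05, and their sum was 17510 to 19120 CPM in KO and 18220 to 19910 CPM in WT. KO replicate 2 and WT replicate 1 lay at opposite ends of the first principal component of all tested genes, at -29.4 and 18.

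None of the 44 stress-response genes passed the test at an adjusted p under 0.05 with edgeR, DESeq2 or limma-voom, which called 0.0165%, 0.222% and 0.00824% of all tested genes. DESeq2 gave no adjusted p for Pycr1. At an unadjusted p under 0.05, edgeR placed 5 of the 44 higher in KO, or 11.4%, against 3.86% of all tested genes. The same threshold placed 1 of the 44 lower, or 2.27%, against 3.06% of all tested genes. In both directions together edgeR placed 6.92% of all tested genes past it, DESeq2 6.53% and limma-voom 7.08%. Of the 44, DESeq2 gave 5 higher and 2 lower, and limma-voom 5 higher and 1 lower. In bulk libraries fewer cells of a type and less RNA per cell cannot be told apart. The 5 higher genes were Ddit4, Dnajb9, Atf4, Atf3 and Ern1, and the lower gene was Canx. Leaving out 1 library at a time moved the higher count between 3 and 7 and the lower count between 0 and 6. The higher count was 3 without WT replicate 1 and 3 without WT replicate 3. The lower count was 6 without KO replicate 3, 4 without WT replicate 2 and 0 without any one of the other libraries.

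The share of positive fold changes differed between roles. Genes within a role can move together between libraries, so they are not independent observations. Positive values were found for 22 of the 44 genes, with a median of 0.0015, where 49.8% of all tested genes were positive. All 5 transcription factors of the integrated stress response and all 3 signalling outputs of ATF4 were positive, with medians of 0.23 and 0.25. Of these, Cebpg and Nupr1 were negative without KO replicate 3, at -0.00335 and -0.135. Genes of ER chaperones and folding enzymes were negative in 12 of 13 cases, with a median of -0.15 that was -0.042 without WT replicate 1. Amino acid and one-carbon synthesis genes were positive in 4 of 8 cases, with a median of -0.035. All tested genes had a median of -0.00088.

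**Figure D1:**
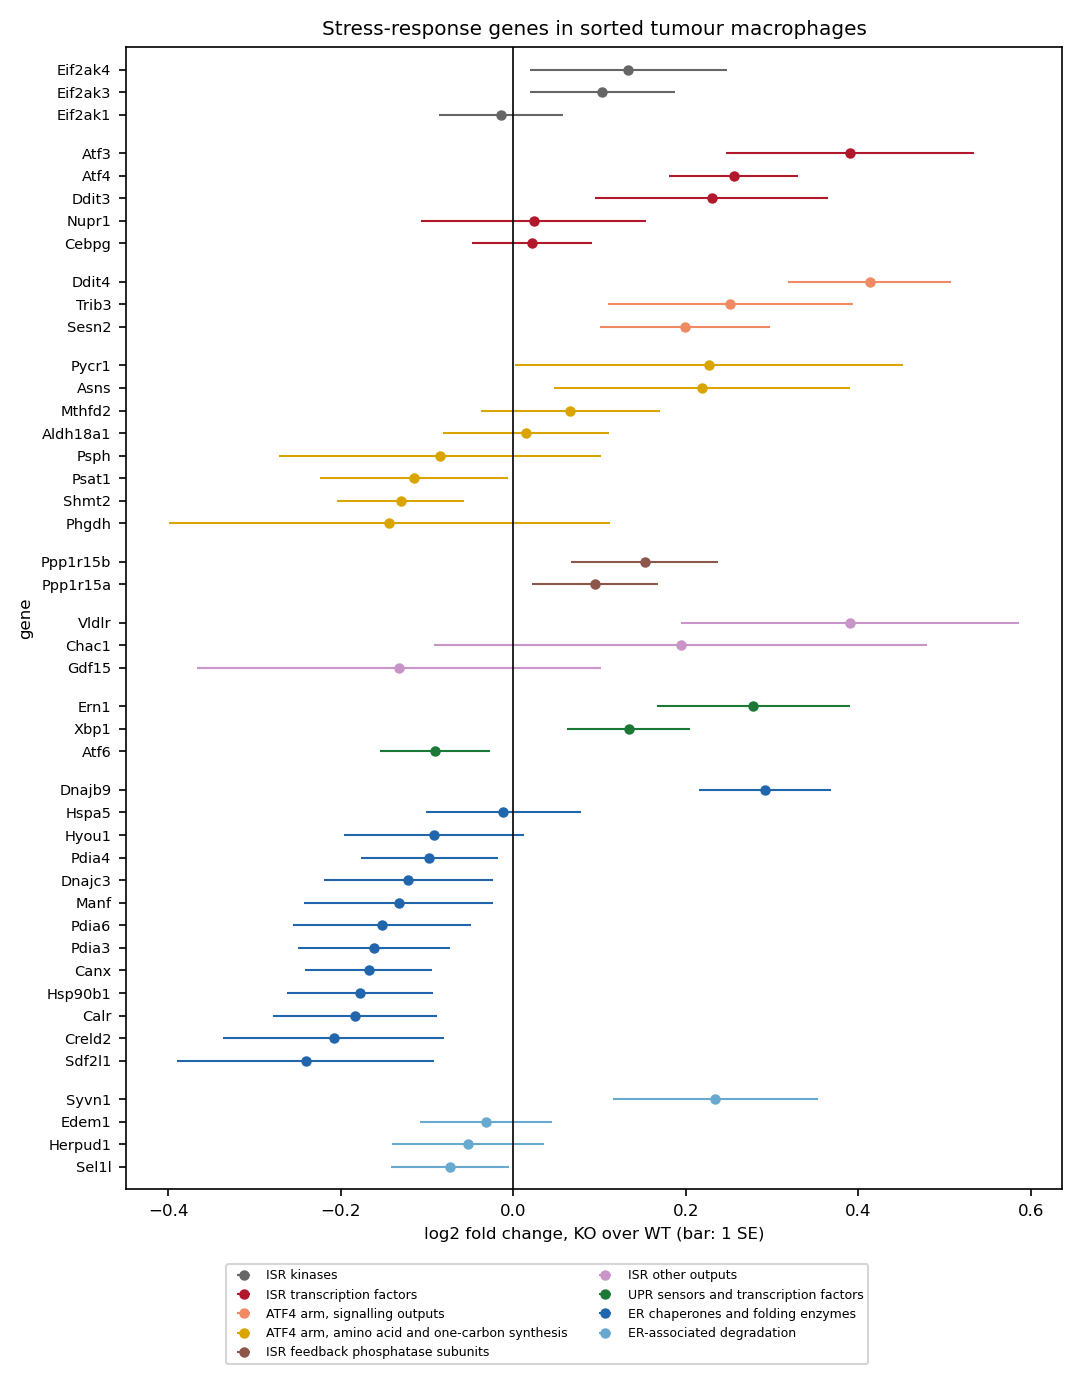
Log2 fold change of each of the 44 genes, KO over WT, grouped by role from top to bottom. Points are edgeR estimates from 3 KO and 3 WT libraries and bars are 1 SE. The ER chaperones lie left of 0 except Dnajb9 at 0.29, the transcription factors lie right of 0, and no gene passed the adjusted test.

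Among the kinases that phosphorylate eIF2, Eif2ak3, which encodes PERK, had 33.3, 36.3 and 36.1 CPM in KO, against 35.0, 30.8 and 32.5 CPM in WT. Eif2ak4, which encodes the amino acid sensor GCN2, had 40.8, 45.4 and 36.0 CPM in KO, against 33.0, 36.2 and 42.2 CPM in WT. Groups overlapped for both, with log2 values of 0.10 (SE 0.0841) and 0.13 (SE 0.114) and edgeR adjusted p of 0.807 and 0.818. Eif2ak1, the haem-regulated kinase, averaged 63.2 ± 3.64 CPM in KO and 63.8 ± 1.53 CPM in WT (SD, n = 3 each), a log2 value of -0.014. KO replicate 2 held the highest value of all 3 kinases.

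Atf4 (NCBI Gene 11911, chromosome 15, 80255184 to 80257545, GRCm38), the central transcription factor of the integrated stress response, had 334, 365 and 338 CPM in KO, against 271, 301 and 297 CPM in WT. All KO values lay above all WT values, at a log2 value of 0.26 (SE 0.0742, edgeR adjusted p = 0.701). Groups that do not overlap in this direction were found for 6.11% of all tested genes and for 5 of the 44. The log2 value of Atf4 stayed between 0.21 and 0.29 when any one library was left out.

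Atf3 (chromosome 1, 191170296 to 191183333), a transcription factor that is also induced within minutes by tissue handling, had 492, 619 and 540 CPM in KO, against 345, 510 and 406 CPM in WT. WT replicate 2 reached above KO replicate 1, so the groups overlapped, at a log2 value of 0.39 (SE 0.144, edgeR adjusted p = 0.703). Ddit3, which encodes CHOP, a transcription factor linked to cell death under lasting ER stress, had 19.7, 23.8 and 21.5 CPM in KO, against 15, 20.5 and 19.9 CPM in WT. Its lowest KO value lay below both higher WT values, and its log2 value was 0.23 (SE 0.135, edgeR adjusted p = 0.753). Cebpg, a partner of ATF4 on DNA, and Nupr1, a small stress-induced chromatin protein, were near 0 on the log2 scale at 0.021 and 0.023.

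Ddit4 (NCBI Gene 74747, chromosome 10, 59949675 to 59951770) encodes an inhibitor of the growth kinase mTORC1 and ranked first among the 44 genes by p-value and 19 among all tested genes. Its RNA was at 83.2, 64.9 and 78.0 CPM in KO, against 55.6, 59.0 and 55.2 CPM in WT. The groups did not overlap, although KO replicate 2 lay close to WT replicate 2. KO exceeded WT by 1.33-fold, or 0.41 on the log2 scale (SE 0.0948, edgeR adjusted p = 0.694). DESeq2 gave an adjusted p of 0.0961, the lowest of the 15 alternatives tried for this gene, which ran up to 0.999.

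Sesn2, which encodes sestrin 2, a leucine-binding inhibitor of mTORC1 signalling, had 27.9, 25.5 and 28.2 CPM in KO, against 22.6, 26.2 and 22.2 CPM in WT. WT replicate 2 lay above KO replicate 2, and the log2 value was 0.20 (SE 0.0987, edgeR adjusted p = 0.725). Trib3, a pseudokinase that feeds back on ATF4, averaged 18.7 ± 3.63 CPM in KO and 15.7 ± 1.05 CPM in WT (SD, n = 3 each), with a log2 value of 0.25. Without KO replicate 3, the value of Trib3 was 0.087. The averaged log2 CPM of Ddit4, Sesn2 and Trib3, centred over the 6 libraries, was 0.175, -0.033 and 0.277 in KO, against -0.206, -0.045 and -0.169 in WT. These scores did not overlap, by a narrow margin between KO replicate 2 and WT replicate 2.

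**Figure D2:**
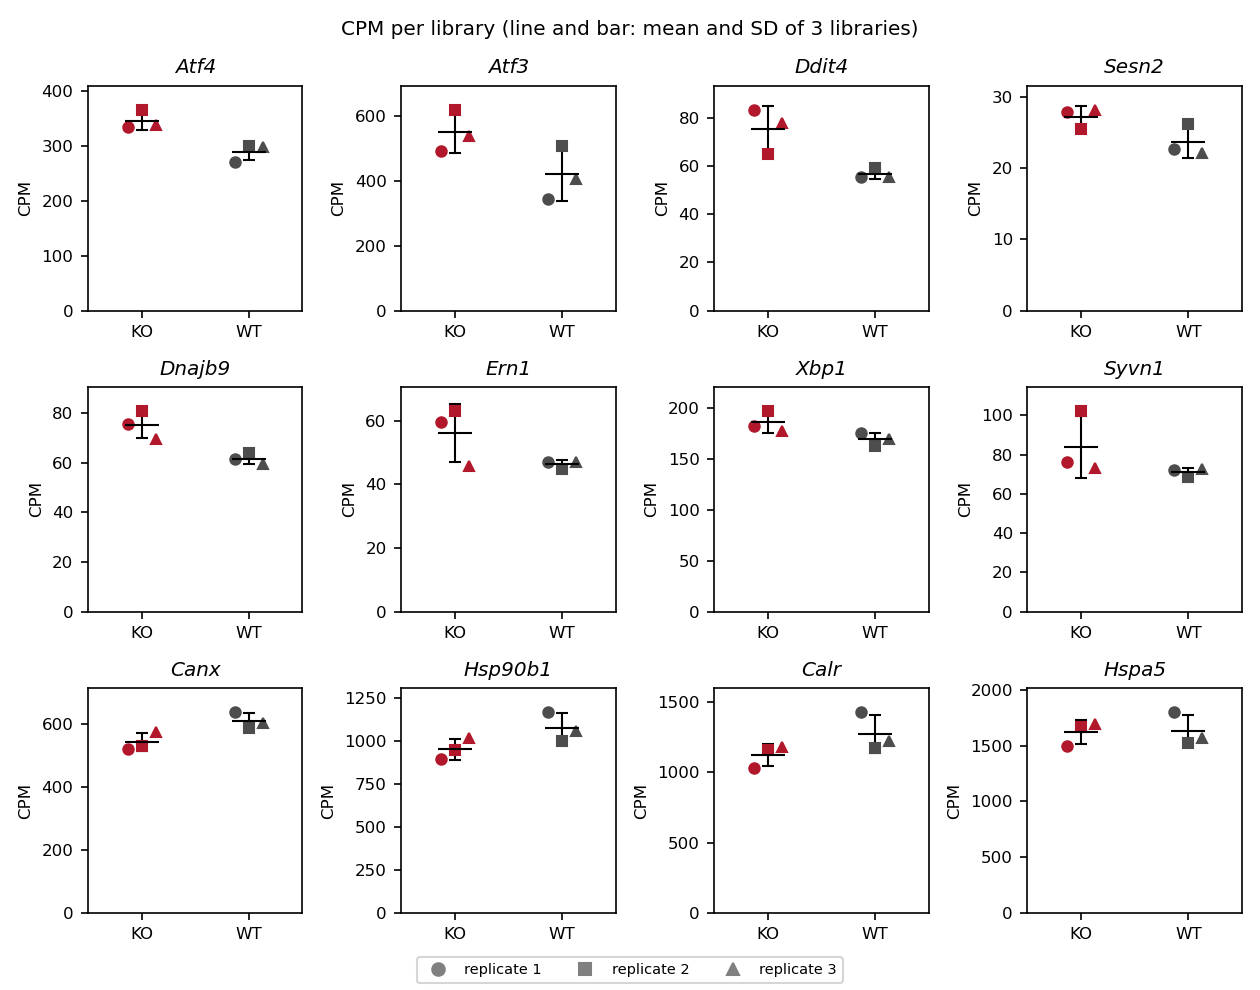
CPM of 12 of the genes in each library, KO left of WT, on axes that start at 0. Symbols mark the replicate number, and the line and bar are the mean and SD of 3 libraries. Atf4, Ddit4, Dnajb9, Xbp1 and Syvn1 have no KO value below a WT value, and Canx has no KO value above one.

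ATF4 binds DNA with C/EBP proteins at a composite element whose core was searched on both strands as TGATGNAA. Promoter windows of RefSeq genes on GRCm38.p6, from 250 bases before to 50 bases after the start, were supplied for 40 of the 44 genes. The core was in 8 of these 40 windows, or 20%, and in 4.51% of the windows of all 27025 symbols. It was found for Atf3, Nupr1, Trib3, Asns, Pycr1, Chac1, Vldlr and Herpud1. Windows of 3 of these are shown because the element lies upstream of the start that the window uses. Their genes encode a regulator, an enzyme and a receptor of the ATF4 programme. For Vldlr that start lies inside the annotated gene (chromosome 19, 27216480 to 27254231), and so does the printed stretch. The core is in capitals, and TTGCATCA is the same core read on the other strand.
Atf3: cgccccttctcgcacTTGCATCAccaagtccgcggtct
Asns: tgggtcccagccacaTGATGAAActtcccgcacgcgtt
Vldlr: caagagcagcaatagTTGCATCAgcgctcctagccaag
These stretches lie at chr1:191183421-191183458 on the minus strand, chr6:7693210-7693247 on the minus strand and chr19:27216805-27216842 on the plus strand, and are printed 5′ to 3′ on the strand of the gene. The 8 genes with the core had log2 values from -0.052 to 0.39, of which 7 were positive, with a median of 0.22. The other 32 had 14 positive values and a median of -0.023, and 14 of them were ER chaperone or degradation genes. Outside those ER genes, 7 of 7 genes with the core and 12 of 18 without it were positive, with medians of 0.23 and 0.080. Of these 7, Chac1 and Nupr1 were negative without KO replicate 3, at -0.235 and -0.135. Without that library Asns, Pycr1 and Trib3 were at 0.021, 0.073 and 0.087, and Vldlr at 0.199. Atf3 stayed at 0.267 or above when any one library was left out. Ddit4 and Atf4 were among those 32, and a match says only that these letters are in the window.

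Genes of amino acid and one-carbon synthesis, which ATF4 induces when amino acids run short, separated the KO libraries from one another more than KO from WT. Asparagine synthetase (Asns) had a log2 value of 0.22 (SE 0.172), with means of 43.0 ± 10.9 CPM in KO and 37.0 ± 3.60 CPM in WT (SD, n = 3 each). Phgdh, which starts serine synthesis, had 62.8, 40.7 and 95.4 CPM in KO, against 74.3, 74.6 and 70.9 CPM in WT. WT values of Phgdh thus lay within a range of a few CPM, inside the wide KO range, and the log2 value of -0.14 had an SE of 0.256 (edgeR adjusted p = 0.911).

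The same spread ran through the group. KO replicate 3 held the highest value for 7 of the 8 synthesis genes, and KO replicate 2 the lowest for 6 of the 8. The averaged score was -0.026, -0.293 and 0.293 in KO (SD 0.293), against -0.03, -0.001 and 0.058 in WT (SD 0.045). Psat1 and Psph, the following enzymes of serine synthesis, averaged 85.0 ± 13.8 and 13.5 ± 3.77 CPM in KO, against 92.1 ± 4.22 and 14.4 ± 1.17 CPM in WT (SD, n = 3 each). Shmt2, the mitochondrial enzyme that passes a carbon from serine to folate, had 59.4, 58.3 and 64.7 CPM in KO, against 67.3, 63.5 and 68.8 CPM in WT. Its groups overlapped by KO replicate 3 alone, with a log2 value of -0.13 (SE 0.0734, edgeR adjusted p = 0.739).

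The next enzyme of mitochondrial folate metabolism, Mthfd2, was at 0.066 on the log2 scale. Aldh18a1 and Pycr1, which make proline, were at 0.014 and 0.23. The median of the 8 synthesis genes was 0.106 without KO replicate 2 and -0.134 without KO replicate 3. Phgdh was at 0.11 without KO replicate 2 and at -0.50 without KO replicate 3.

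**Figure D3:**
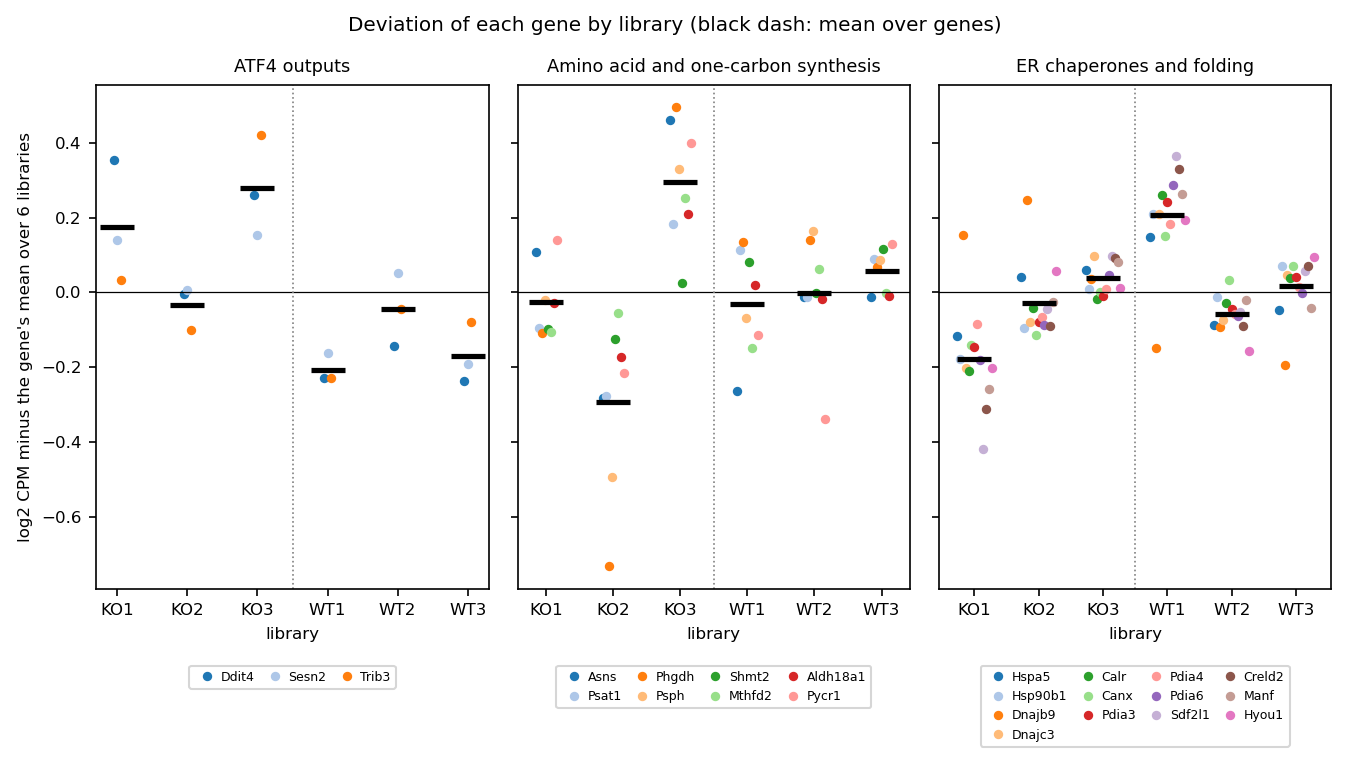
Log2 CPM of each gene minus its mean over the 6 libraries, for ATF4 signalling outputs, synthesis genes and ER chaperones, with KO libraries left of WT libraries. Each point is 1 gene and black dashes are means over genes. Synthesis genes are low in KO2 and high in KO3, and all chaperones but Dnajb9 are lowest in KO1 and highest in WT1.

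None of the feedback genes and other outputs of the integrated stress response passed the test. Ppp1r15a and Ppp1r15b, which encode the subunits that direct a phosphatase to eIF2, averaged 235 ± 15.6 and 252 ± 21.9 CPM in KO, against 220 ± 5.85 and 227 ± 15.3 CPM in WT (SD, n = 3 each). Their log2 values were 0.094 and 0.15, with an edgeR adjusted p of 0.801 and 0.739. Vldlr, a lipoprotein receptor, had 13.2, 9.87 and 16.6 CPM in KO, against 8.62, 11.8 and 9.82 CPM in WT. KO replicate 2 lay inside the WT range, and the log2 value was 0.39 (SE 0.196, edgeR adjusted p = 0.725). Chac1, which degrades glutathione, and Gdf15, a secreted stress hormone, had log2 values of 0.19 (SE 0.286) and -0.13 (SE 0.234), and both changed sign when a single library was left out. Without KO replicate 3 Chac1 was at -0.23, and without WT replicate 2 Gdf15 was at 0.089.

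Of the 3 sensor and transcription factor genes of the unfolded protein response listed apart from PERK, Ern1 and Xbp1 had positive values and Atf6 a negative one. Ern1, which encodes the kinase and RNase IRE1, had 59.7, 63.0 and 45.8 CPM in KO, against 47.0, 44.8 and 47.0 CPM in WT. The third KO library lay within the WT range, and KO was higher by 0.28 on the log2 scale (SE 0.112, edgeR adjusted p = 0.713). Xbp1 encodes the transcription factor whose mRNA IRE1 splices, and had 183, 197 and 178 CPM in KO, against 176, 163 and 169 CPM in WT. All KO values exceeded all WT values, KO replicate 3 only narrowly, with a log2 value of 0.13 (SE 0.0710, edgeR adjusted p = 0.725). Atf6, a membrane-bound transcription factor that is cut free under ER stress, had 109, 106 and 107 CPM in KO, against 116, 111 and 115 CPM in WT. All its KO values lay below all WT values, as for 6.30% of all tested genes and 2 of the 44, and its log2 value was -0.091 (SE 0.0635, edgeR adjusted p = 0.788).

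Chaperones and folding enzymes of the ER had lower averages in KO for 12 of 13 genes. For these 12, KO replicate 1 held the lowest value and WT replicate 1 the highest. Hspa5, which encodes BiP, the chaperone that holds the sensors inactive, had 1498, 1672 and 1694 CPM in KO, against 1801, 1529 and 1571 CPM in WT. The groups overlapped and the log2 value was -0.011 (SE 0.0893, edgeR adjusted p = 0.98). Hsp90b1, the ER form of HSP90, had 891, 944 and 1014 CPM in KO, against 1165, 999 and 1058 CPM in WT. KO replicate 3 lay above WT replicate 2, and the log2 value was -0.18 (SE 0.0849, edgeR adjusted p = 0.722).

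Canx and Calr encode calnexin and calreticulin, lectin chaperones that fold glycoproteins. Canx (chromosome 11, 50293957 to 50325673) had 521, 531 and 575 CPM in KO, against 638, 588 and 603 CPM in WT, with no overlap (log2 -0.17, SE 0.0731, edgeR adjusted p = 0.713). Calr had 1030, 1158 and 1179 CPM in KO, against 1428, 1170 and 1224 CPM in WT, with an overlap at KO replicate 3 (log2 -0.18, SE 0.0949, edgeR adjusted p = 0.725). Their partner Pdia3, a disulphide isomerase, had 666, 697 and 732 CPM in KO, against 871, 715 and 758 CPM in WT. It overlapped in the same way, with a log2 value of -0.16 (SE 0.0880, edgeR adjusted p = 0.73).

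Creld2 and Sdf2l1, ER proteins whose genes are induced by ER stress, had the most negative log2 values of the 13. Creld2 had 48.8, 57.0 and 64.6 CPM in KO, against 76.2, 56.9 and 63.7 CPM in WT (log2 -0.21, SE 0.128, edgeR adjusted p = 0.767). Sdf2l1 had 65.2, 84.5 and 93.2 CPM in KO, against 112, 84.0 and 90.7 CPM in WT (log2 -0.24, SE 0.149, edgeR adjusted p = 0.774). For both, KO replicates 2 and 3 lay within the WT range, KO replicate 1 was lowest and WT replicate 1 highest. The isomerases Pdia4 and Pdia6, the co-chaperone Dnajc3, the secreted factor Manf and the HSP70 relative Hyou1 had log2 values from -0.15 to -0.092.

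Dnajb9 (NCBI Gene 27362, chromosome 12, 44205897 to 44210068) was the exception. It encodes ERdj4, a co-chaperone that brings BiP to IRE1 and is itself a target of spliced XBP1. Its RNA was at 75.6, 80.7 and 69.6 CPM in KO, against 61.3, 63.8 and 59.5 CPM in WT, and every KO value lay above every WT value. Its log2 value of 0.29 (SE 0.0766, edgeR adjusted p = 0.695) stayed between 0.24 and 0.35 when any one library was left out.

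WT replicate 1 held the highest value for 12 of the 13 chaperone genes, and KO replicate 1 the lowest for 12 of the 13. The averaged score was -0.177, -0.029 and 0.039 in KO, against 0.207, -0.057 and 0.017 in WT. The median log2 value was -0.15 with all libraries, -0.042 without WT replicate 1 and -0.10 without KO replicate 1. Plasma cells are rich in these chaperones. Markers of B and plasma cells summed to 105 to 130 CPM in KO and 72.4 to 108 CPM in WT (exact permutation p = 0.2), of which 97.9% was Sdc1, higher in KO at an unadjusted p under 0.05 with edgeR. The markers Jchain and Mzb1 averaged 0.0511 and 0.0173 CPM in KO and 0.118 and 0 CPM in WT. The part of such cells in the chaperone values was not tested.

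The ER stress response element, to which ATF6 binds with the factor NF-Y, was searched on both strands as CCAAT, 9 bases of any kind and CCACG. It was in 8 of the 40 windows, or 20%, against 0.137% of all windows, and all 8 belonged to ER chaperone or degradation genes. The genes were listed for their part in these responses, so this share describes the list and not the libraries. A shorter form, ATTGG, 1 base of any kind and CCACG, was in 1 of the 40, that of Herpud1, and in 0.0444% of all windows. The element TGACGTGG was in none of the 40 and in 0.714% of all. Stretches of 4 genes are shown because they hold the same element and their RNAs differed in direction or size. Capitals mark the match, which in Calr is read on the other strand.
Canx: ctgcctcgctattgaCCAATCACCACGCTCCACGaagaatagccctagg
Calr: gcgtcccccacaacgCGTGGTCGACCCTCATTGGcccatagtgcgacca
Hspa5: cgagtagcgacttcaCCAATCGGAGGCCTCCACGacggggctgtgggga
Syvn1: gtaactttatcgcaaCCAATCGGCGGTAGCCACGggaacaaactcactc
The stretches lie at chr11:50325785-50325833 and chr8:84847060-84847108 on the minus strand, and at chr2:34772010-34772058 and chr19:6046517-6046565 on the plus strand. The 8 genes with the element had log2 values from -0.21 to 0.23, of which 7 were negative, with a median of -0.16. The other 7 ER genes with a window, among them Herpud1 with the shorter form, had 6 negative values and a median of -0.073. Negative values were thus found with and without a match to the longer element.

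In ER-associated degradation, which returns misfolded proteins to the cytosol, 3 of 4 genes had negative log2 values, with a median of -0.042 that was 0.026 without WT replicate 1 and -0.0094 without KO replicate 1. Their averaged score was higher in KO by 0.016, with overlap. Syvn1, the ubiquitin ligase HRD1, was the positive one, at 76.0, 102 and 73.1 CPM in KO, against 72.2, 68.7 and 72.7 CPM in WT. The groups did not overlap, but KO replicates 1 and 3 lay close to the WT values. Its log2 value of 0.23 (SE 0.119, edgeR adjusted p = 0.725) was 0.067 without KO replicate 2. Its cofactor Sel1l averaged 154 ± 5.61 CPM in KO and 162 ± 6.56 CPM in WT (SD, n = 3 each). Edem1, which extracts glycoproteins for degradation, and Herpud1, an adaptor of the ligase, had log2 values of -0.032 and -0.052.

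The contrast between the ATF4 arm and the ER arm was described from 11 genes of amino acid synthesis, Ddit4, Sesn2 and Trib3 on one side and 17 chaperone and degradation genes on the other. Positive log2 values were found for 7 of 11 genes of the ATF4 arm and 2 of 17 genes of the ER arm, with medians of 0.066 and -0.12. The ATF4 arm minus the ER arm, as averaged log2 CPM per library, was 0.177, -0.226 and 0.266 in KO, against -0.254, 0.046 and -0.009 in WT. The groups overlapped, since KO replicate 2 lay near the lowest WT library. KO minus WT was 0.145 for this score, 0.0478 without KO replicate 3, 0.0536 without WT replicate 1, 0.0923 without KO replicate 1 and 0.294 without KO replicate 2. The difference between the medians was 0.19 with all libraries, ran from 0.14 to 0.30 when any library other than WT replicate 1 was left out, and was 0.064 without WT replicate 1. The median of the ATF4 arm was -0.052 without KO replicate 3. The ATF4 arm was also widened to 19 genes by adding the transcription factors and other outputs of the integrated stress response. All 5 of these factors and 2 of the 3 other outputs had positive log2 values. With this wider arm, the difference between the medians was 0.316 and that of the scores 0.184. It was not refitted with a library left out. These values describe the lists and carry no test.

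**Figure D4:**
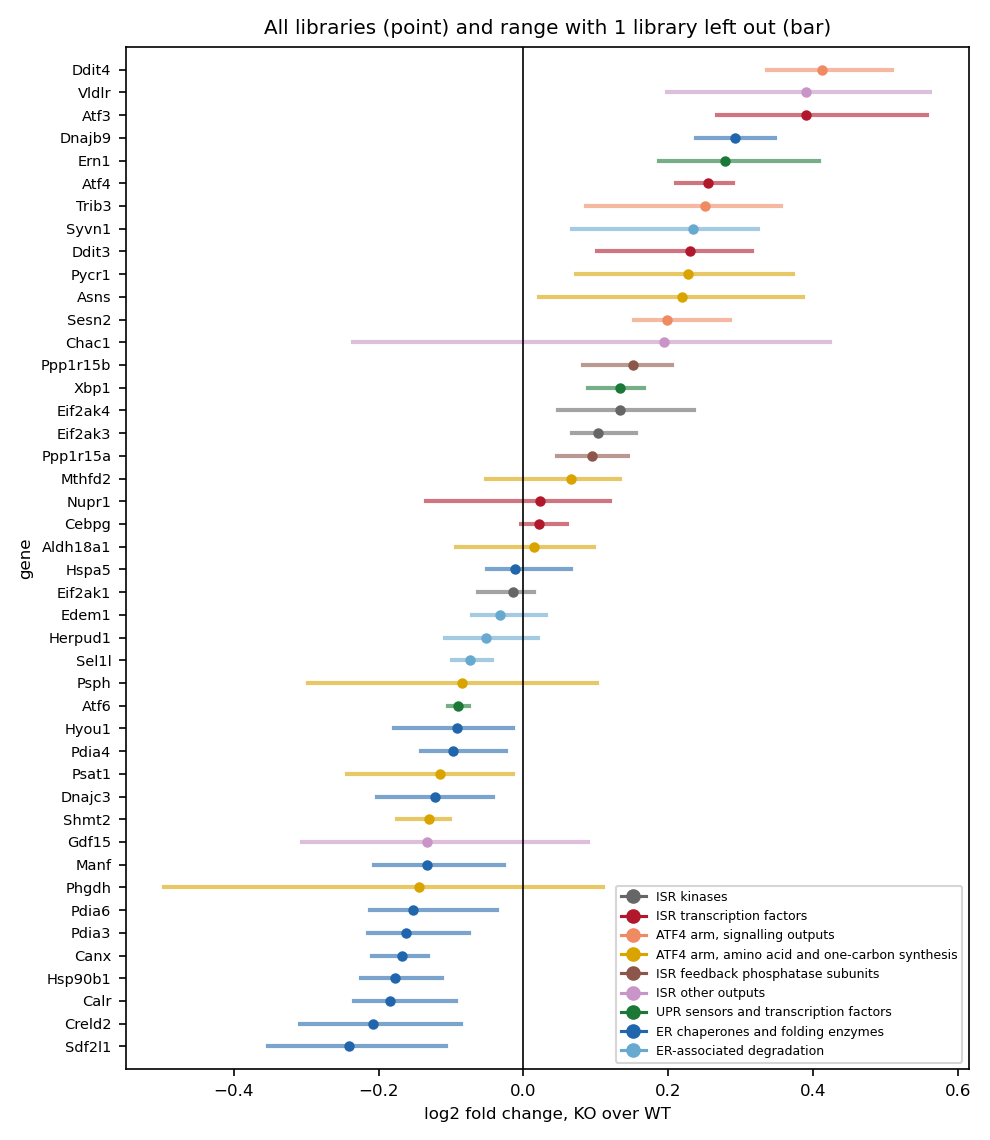
Log2 fold change of each gene, KO over WT, with all 6 libraries (point) and the range over the 6 fits that each leave out 1 library (bar), ordered by value and coloured by role. Ddit4, Dnajb9 and Atf4 keep to one side of 0 with short bars, while Phgdh and Chac1 cross 0 with bars from -0.50 to 0.11 and from -0.23 to 0.42.

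Further genes of the same pathways were taken from 8 lists of 99 genes, of which 95 were tested and none was called with edgeR. At an unadjusted p under 0.05 with edgeR, 1 of the 95 was higher in KO and 2 were lower, against 3.86% and 3.06% of all tested genes. DESeq2 gave 1 higher and 0 lower. The higher count was 0 without WT replicate 1 or WT replicate 3 and 3 without KO replicate 2 or WT replicate 2. The lower count was 7 without KO replicate 3, 1 without KO replicate 1 or WT replicate 1 and 0 without WT replicate 3. Cebpb, a C/EBP factor of inflammation and stress, was at 731 ± 42.6 CPM in KO and 592 ± 94.3 CPM in WT (SD, n = 3 each), a log2 value of 0.31 (SE 0.110, edgeR adjusted p = 0.701). Eif2ak2, the double-stranded RNA sensor PKR, which also phosphorylates eIF2 and is induced by interferon, was at 38.2 ± 1.80 CPM in KO and 43.4 ± 1.96 CPM in WT (log2 -0.18, SE 0.0773, edgeR adjusted p = 0.713). Spcs3, a subunit of the signal peptidase, was the other lower gene at a log2 value of -0.19 (SE 0.0831, edgeR adjusted p = 0.713).

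Most of the negative values in these lists belonged to genes of the ER. ER folding and disulphide enzymes outside the 44 were negative in 13 of 14 cases with a median of -0.089, including Erp29 at -0.13 and Pdia5 at -0.26. Genes of ER translocation and export were negative in 16 of 17 cases with a median of -0.095. In both lists WT replicate 1 held the highest value for many genes, such as Dnajb11 and Spcs2, as it did for the chaperones. Medians of these lists without that library were not computed. Amino acid transporters among ATF4 targets were positive in 6 of 8 cases with a median of 0.091, including Slc38a2 at 0.19 and Slc1a5 at 0.11. Slc7a11, the cystine transporter, was at -0.13 and Slc7a1, a transporter of arginine and lysine, at -0.17. The tRNA synthetases among ATF4 targets were positive in 4 of 11 cases, with a median of -0.010. Other regulators and enzymes among ATF4 targets were positive in 9 of 15 cases, with a median of 0.052. Subunits of eIF2 and of its exchange factor, with PKR, were positive in 3 of 9 cases, with a median of -0.023. Further genes of ER-associated degradation were positive in 4 of 12 cases and further signalling genes of the unfolded protein response in 3 of 9, with medians of -0.0085 and -0.066.

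Levels per kilobase of annotated exon were highest for 2 ER chaperones. Calr and Hspa5 were at 390 and 383 CPM per kb in KO and at 442 and 386 CPM per kb in WT. Hsp90b1, Pdia3 and Canx also ranked among the 7 highest of the 44 in WT, as did Atf3 and Atf4, which were at 256 and 147 CPM per kb in KO and 195 and 123 CPM per kb in WT. Outputs of ATF4 were far lower, with Ddit4 at 42.9 CPM per kb in KO and 32.2 CPM per kb in WT, and Trib3 at 8.81 CPM per kb in KO and 7.41 CPM per kb in WT. Pycr1 was lowest in both groups, at 1.15 CPM per kb in KO and 0.986 CPM per kb in WT. Order between neighbours depends on which isoforms are made, since the length counts every annotated exon once.

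**Figure D5:**
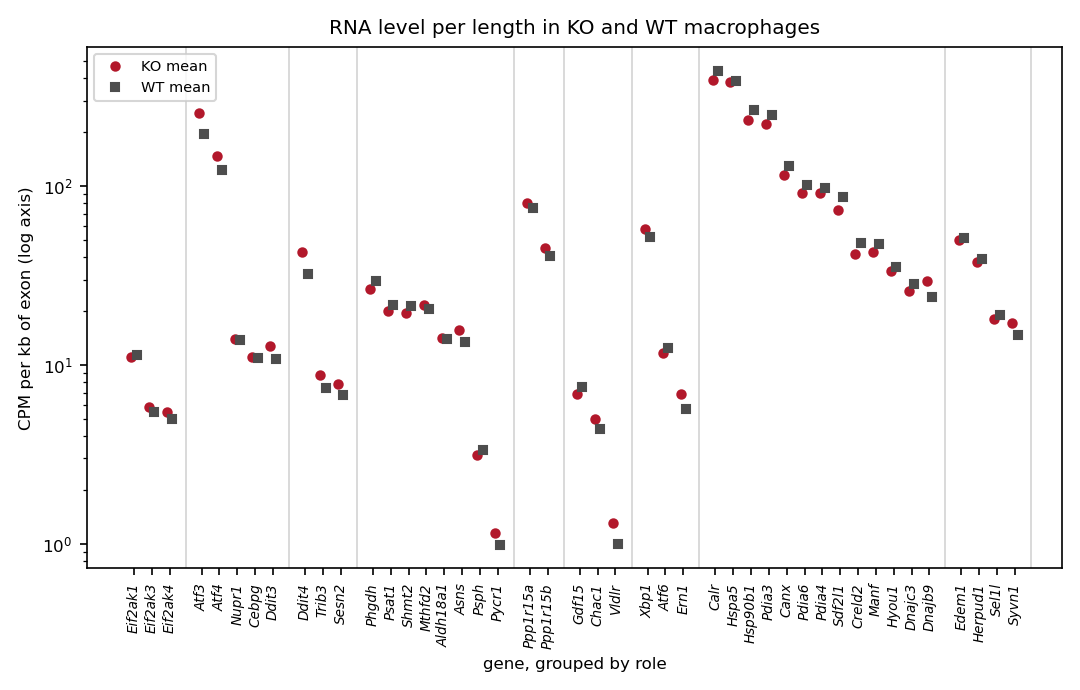
Mean level of each gene in KO (circles, left) and WT (squares, right) as CPM per kilobase of exon on a log axis, grouped by role. Calr and Hspa5 are highest at 390 and 383 CPM per kb in KO, and Vldlr and Pycr1 lowest at 1.31 and 1.15.

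Genes outside the stress pathways also differed between these libraries. Genes of the immediate early and dissociation response, known to react to tissue handling, were positive in 21 of 23 cases with a median of 0.22. With edgeR, 8 were higher in KO at an unadjusted p under 0.05 and 0 lower, against 3.86% and 3.06% of all tested genes. Their summed level was 17970 to 20360 CPM in KO and 14940 to 18320 CPM in WT (two-sided exact permutation p = 0.2, where 0.1 is the smallest that 3 against 3 libraries allow). As mean log2 CPM, these genes were higher in KO by 0.242 (exact permutation p = 0.1). Their lowest sum was in WT replicate 1 and their highest in KO replicate 2, as for Atf3 and Atf4. Their part in the values of Atf3, Atf4 and Ddit4 was not tested. Hypoxia is another setting in which Ddit4 is known to be induced. Genes of the hypoxia response were positive in 12 of 15 cases with a median of 0.069, and 0 had an unadjusted p under 0.05 with edgeR. They summed to 5842 to 6100 CPM in KO and 5203 to 6245 CPM in WT (exact permutation p = 0.4).

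Neutrophil markers summed to 133 to 182 CPM in KO and 85.6 to 120 CPM in WT, with 7 of 8 tested markers positive (exact permutation p = 0.1). With edgeR, Ltf, Mmp8, Mmp9 and S100a8 of these were higher in KO at an unadjusted p under 0.05. The leading marker Mmp9 made up 46.4% of the sum, and without it the sum was 56.8, 101 and 68.2 CPM in KO and 72.5, 54.8 and 57.2 CPM in WT, with overlap. Ly6g averaged 0.0493 CPM in KO and 0 CPM in WT. T and NK cell markers summed to 169 to 238 CPM in KO and 132 to 169 CPM in WT (exact permutation p = 0.2), of which Il7r made up 83.0%. Without Il7r the sum was 19.5, 59.5 and 26.8 CPM in KO and 19.6, 22.7 and 31.9 CPM in WT, so that KO replicate 2 alone lay above WT. The part of these cells in the values above was not tested.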

How the data were processed

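RNA of sorted tumour macrophages was extracted with a mirVana kit and made into stranded mRNA libraries with a TruSeq kit, per the labels' protocols. The deposited values are raw counts, 1 whole number for each gene and library. The submitters' processing notes name Trimmomatic, HISAT2, Cufflinks, HTSeq and mm10 but no version and no step. The strand setting of the counting is not given in those notes. Exons of 9 of 44 genes share bases with another counted gene (Eif2ak1, Ddit3, Psph, Shmt2, Ppp1r15a, Pdia3, Pdia6, Manf and Syvn1). Except for Manf, the other gene lies on the opposite strand, so these genes carry that uncertainty. Manf shares bases with Rbm15b on the same strand, whatever the setting.

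Counts were analysed with edgeR 4.0.16 in R 4.3.3: filterByExpr (minimum count 10, minimum total 15), TMM factors, a robust quasi-likelihood fit with genotype as the only term, and Benjamini-Hochberg adjustment over all 12136 tested genes, called at an adjusted p under 0.05. The SE of a log2 fold change is its size divided by the square root of the F statistic. Scores are mean log2 CPM with a prior count of 2. DESeq2 1.42.0 and limma-voom (limma 3.58.1) were alternatives, with other scalings, filters, the replicate block and each library left out. The procedure was tested on simulated counts, in which every planted change was larger than the fold of any stress-response gene here. That test cannot show how often changes as small as theirs would be called. For marker sums, two-sided exact permutation tests were used. Every pair of libraries differed by more than sampling noise (chi-square per degree of freedom of at least 7.95). Coordinates and promoters are from RefSeq on GRCm38.p6, the assembly that mm10 names, and exon lengths from GENCODE M21.

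The 44 genes and the lists were chosen with earlier results of these data known. Values in every library are given for the 7 genes of lowest p on either side of 0 and for Atf4, Ddit3, Eif2ak3, Eif2ak4, Ern1, Xbp1, Atf6 and Hspa5. Phgdh and Syvn1 were given in full after their values were seen. Protein sequences were not used here.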

Additional observations from a re-analysis of the deposited data

How the results depend on the processing

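No stress-response gene was called under any of the 15 alternatives tried for each, and the smallest adjusted p was 0.0961. Over these alternatives 32 of the 44 genes kept their sign, and every sign change came with 1 library left out. The ranges then were -0.063 to 0.014 for Eif2ak1, -0.0034 to 0.060 for Cebpg, -0.14 to 0.12 for Nupr1, -0.50 to 0.11 for Phgdh, -0.30 to 0.10 for Psph, -0.052 to 0.13 for Mthfd2, -0.092 to 0.098 for Aldh18a1, -0.23 to 0.42 for Chac1, -0.31 to 0.089 for Gdf15, -0.050 to 0.066 for Hspa5, -0.11 to 0.021 for Herpud1 and -0.070 to 0.032 for Edem1. The cause was not tested. Over all genes, 0 were called higher and 2 lower, against 8 and 19 with DESeq2, 1 lower with RLE, upper-quartile or total scaling, limma-voom, the replicate block or no low-count filter, and 0 with at least 1 CPM in 3 libraries. With 1 library left out, 0 to 3 were higher and 0 to 2 lower. Lower genes of the 44 at an unadjusted p under 0.05, 1 in all, were 0 with upper-quartile scaling, no filter, the 1 CPM filter or the replicate block and 2 with DESeq2. Higher ones were 3 to 7 and lower ones 0 to 6 with 1 library left out. Genes of the 44 without overlap were 1 below with total scaling, and 5 to 10 above and 2 to 14 below with 1 library left out. Groups separate more easily when 1 of them holds only 2 libraries. The share over all genes was not computed for those fits, so these counts cannot be set beside the shares given for all 6 libraries. Of the 99 further genes, the lower count was 1 with upper-quartile scaling, either other filter or no robust shrinkage, and 0 with totals, DESeq2 or the replicate block, and with 1 library left out the counts were 0 to 3 higher and 0 to 7 lower. With 1 library left out, the median of the transcription factors ran from 0.10 to 0.29, that of Chac1, Vldlr and Gdf15 from -0.23 to 0.42. Monocyte and endothelial marker scores as mean log2 CPM differed by -0.044 and -0.11, opposite in sign to their sums. The labels do not say whether the replicate numbers pair the libraries. Same-numbered libraries had correlations of deviations of -0.057, -0.094 and -0.109, and differently numbered ones from 0.015 to 0.08. Deviations were centred within each group, so these small values cannot decide whether libraries were paired. Over the 6 libraries the fewest reads were counted for Pycr1 (498), Chac1 (912) and Vldlr (1380), which limits the precision of their values.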
